A study of Mus musculus with 23 samples.

Results

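The interferon-induced genes described here are 49 named genes that type I interferon is known to raise in mouse cells, taken by gene name from the count table. All 49 were found among 54532 listed genes, and all 49 were among the 16545 genes tested. Interferons are secreted when cells sense viral or displaced self nucleic acid. They bind receptors that activate the kinases JAK1 and TYK2 and, through them, a complex that holds STAT2 and IRF9, which binds interferon-stimulated response elements (ISREs) in front of its target genes. The products include nucleic acid sensors, transcription factors that feed the response forward, and effectors that block viral entry, translation and replication. In the infarcted heart, macrophages that take up DNA from dying cells are known to switch such genes on.

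Poly(A) RNA was sequenced from Ly6G-CD11b+ cells, labelled cardiac macrophages, of C57BL/6 mice. MyS7KO mice carry LyzM-Cre with Smad7 fl/fl, so that the lysozyme M promoter drives Cre in monocytes, macrophages and neutrophils, and S7fl/fl littermates carry the floxed allele without Cre. Smad7 is an inhibitor of TGF-β receptor signalling, and the study asked what it does in macrophages after infarction. MyS7KO cells came from 3 libraries at baseline, 5 at day 3 and 4 at day 7 of permanent ligation of the left anterior descending coronary artery, and S7fl/fl cells from 3, 5 and 3. The age of the animals is not given in the labels. Neither do the labels say whether each library is a separate heart, so p-values measure the spread between these libraries. The sort selects on CD11b, which other myeloid cells and NK cells also carry.

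Library totals were 15479402 to 23884938 counts. Smad7 was measured at 19.7 to 48.7, 10.5 to 19.9 and 16 to 33.4 CPM (counts relative to the scaled library total) in MyS7KO libraries at baseline, day 3 and day 7, against 53.1 to 61.2, 30.4 to 42 and 57.4 to 70.2 CPM in S7fl/fl libraries, with no overlap at any time. The 8 macrophage markers summed to between 6810 and 11698 CPM in every library, so markers of the labelled cell type were present throughout. Fibroblast markers summed to 247 to 5080 CPM, highest in MyS7KO day 7 replicate 1, and endothelial markers to 198 to 2395 CPM, highest at baseline. Xist and Y-linked genes gave 4 female libraries of 4 in MyS7KO at day 7 and 3 male libraries of 3 in S7fl/fl at day 7, so the effect of genotype at day 7 cannot be told apart from that of sex. At day 3, 1 library of each genotype held both signals, with the weaker above 2% of its median in libraries of the other sex. Next under that cut lay MyS7KO day 3 replicate 2 (1.97%), S7fl/fl day 3 replicate 3 (1.37%) and S7fl/fl day 7 replicate 3 (1.04%).

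Several libraries lay away from their groups for these genes. MyS7KO day 7 replicate 3 held the lowest value of its group for 45 of 49 members, against 30.0% of all genes tested, and lay a median 0.76 log2 units below the mean of all 23 libraries. S7fl/fl baseline replicate 2 held the highest value of its group for 40 of 49 members, against 37.6% of all genes, and lay a median 0.35 above that mean. MyS7KO day 7 replicate 5 was highest for 32 members (25.1% of all genes) and lay a median 0.51 above that mean. S7fl/fl baseline replicate 3 was lowest for 35 members (27.6% of all genes), and MyS7KO baseline replicate 2 for 34 (29.8%).

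**Figure D1:**
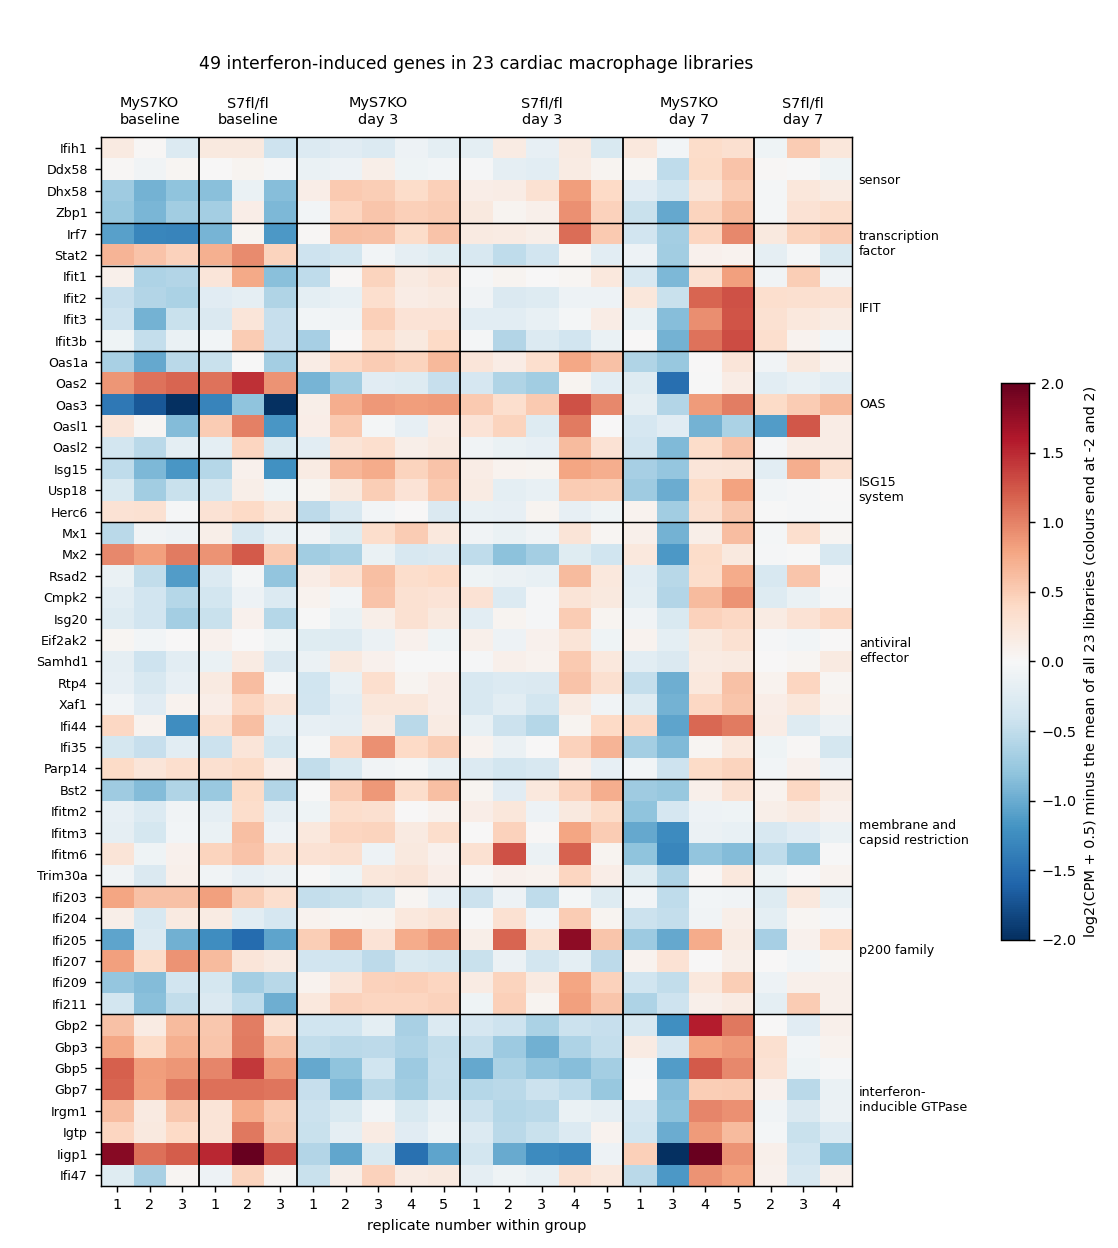
Each row is one of 49 members, grouped by role, and each column one of 23 libraries, with colour for log2(CPM + 0.5) minus the row mean over all 23 libraries. Apart from Ifi47, the GTPases are mostly red at baseline and mostly blue at day 3 in both genotypes. Oas3 runs the other way, and MyS7KO day 7 replicate 3 is blue in nearly every row.

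Per transcript length, the members were well expressed. Their median level was 12.8 FPKM (fragments per kilobase of gene length, scaled to library depth, mean of 23 libraries), against 2.96 FPKM over all genes tested. The membrane and capsid restriction factors were the highest group, with a median of 193 FPKM over 5 genes. Among them Ifitm3, which blocks fusion of viral and endosomal membranes, averaged 512 FPKM, and Ifitm6 averaged 14.3 FPKM. The p200 family of 6 nuclear DNA-binding proteins followed with a median of 31.1 FPKM, led by Ifi207 at 126 FPKM and closed by Ifi205 at 4.71 FPKM.

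Isg15, a ubiquitin-like modifier, averaged 71.4 FPKM, far above Herc6, the ligase that attaches it in mouse, at 1.91 FPKM. Of the oligoadenylate synthetase (OAS) genes, whose products activate RNase L on double-stranded RNA, Oas1a was highest at 45.3 FPKM and Oas3 lowest at 6.47 FPKM. Irf7, the transcription factor that amplifies type I interferon production, averaged 31.2 FPKM, and Stat2 averaged 12.8 FPKM. The sensors ran from Zbp1 at 12.5 FPKM to Ddx58, which encodes RIG-I, at 7.39 FPKM. The IFIT genes, whose products bind viral RNA ends, ran from Ifit3 at 21.4 FPKM to Ifit3b at 3.20 FPKM. The 12 other antiviral effectors had a median of 7.75 FPKM, between Samhd1, a deoxynucleotide hydrolase, at 34.9 FPKM and Ifi44 at 1.04 FPKM. The 8 interferon-inducible GTPases, which coat and disrupt pathogen vacuoles, had a median of 11 FPKM, between Gbp2 at 17.5 FPKM and Gbp5 at 3.12 FPKM.

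Many members lie in tandem clusters. On GRCm38.p6, the 6 p200 genes lie on chromosome 1 between 173630917, the start of Ifi209, and 174031810, the end of Ifi205. The 4 guanylate-binding protein genes lie on chromosome 3 between 142493978, the start of Gbp5, and 142638008, the end of Gbp2. Oas2, Oas3 and Oas1a lie on chromosome 5 between 120730333 and 120907521, and the 4 IFIT genes on chromosome 19 between 34550694 and 34650009. Neighbours of such clusters can share sequence. Of the transcript of Ifi211, 56.9% of 100-base words also occurred in another gene, and the share was 40.9% for Oas1a, 34.9% for Ifitm2 and 31.7% for Ifit3. Counts of these genes are uncertain for that reason, by an amount that was not measured. Some partners were members too, since Ifi211 shared 37.2% with Ifi205 and Ifit3 its 31.7% with Ifit3b. No such word was shared by 22 members.

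The deletion of Smad7 was first compared at each time. No member passed the test of MyS7KO against S7fl/fl cells at baseline, day 3 or day 7 (edgeR quasi-likelihood, Benjamini-Hochberg adjusted p under 0.05 over 16545 genes). The background was nearly as low, with 0.0121%, 0.0121% and 0.0181% of all genes called at baseline, day 3 and day 7 (0.00604% higher at each time, and 0.00604%, 0.00604% and 0.0121% lower). At an unadjusted p under 0.05, 1 of 49 members passed at each time, against 2.27%, 3.59% and 13.1% of all genes. DESeq2, limma-voom and limma-trend also called 0 members at each time. The typical standard error of a member's log2 difference was 0.28, 0.21 and 0.26 (medians of 49).

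The members' differences between genotypes were small at day 3, with log2 values between -0.50 and 0.40 and a median of 0.01 (25 of 49 positive). At baseline the median was -0.19, with 41 of 49 below 0, and without S7fl/fl baseline replicate 2 it was -0.01. At day 7 the median was -0.02 and the range widest, between -0.91 for Oasl1 and 1.22 for Iigp1. Without MyS7KO day 7 replicate 3 the day 7 median was 0.17.

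The member of lowest p differed at each time. At baseline it was Ifi207, which had 741, 538 and 781 CPM in MyS7KO libraries, against 649.8, 495 and 475 CPM in S7fl/fl libraries, a log2 difference of 0.35 ± 0.14 (standard error). At day 3 it was Ifitm6, which had 14.7, 15, 11.1, 13.7 and 12.6 CPM in MyS7KO libraries, against 14.8, 29.6, 11, 27.7 and 12.4 CPM in S7fl/fl libraries (-0.50 ± 0.22). In both cases the groups overlapped, and the Ifitm6 difference lay in 2 high S7fl/fl libraries, replicates 2 and 4. At day 7 it was Ifitm2, a neighbour of Ifitm3 with the same kind of action at membranes. It had 87.9, 121, 144 and 144 CPM in MyS7KO libraries, against 166, 174 and 162 CPM in S7fl/fl libraries, a log2 difference of -0.43 ± 0.15 (edgeR adjusted p = 0.309). Every MyS7KO library was below every S7fl/fl library for Ifitm2, and the 4 MyS7KO libraries were female and the 3 S7fl/fl libraries male.

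The day 7 differences of the 8 GTPases were all above 0, with a median of 0.46, and none passed the test. Iigp1, an immunity-related GTPase that acts on vacuoles, had 33.3, 3.19, 94.4 and 44.8 CPM in MyS7KO libraries at day 7, against 25.5, 17.9 and 13.4 CPM in S7fl/fl libraries (1.22 ± 0.62, edgeR adjusted p = 0.407). Its MyS7KO libraries thus lay on both sides of all 3 S7fl/fl libraries. Oasl1, which restrains translation of Irf7 mRNA, had 42.4, 45.8, 27.7 and 34.2 CPM in MyS7KO libraries, against 24.3, 128 and 59.1 CPM in S7fl/fl libraries (-0.91 ± 0.48, adjusted p = 0.415), with S7fl/fl replicates 3 and 4 above all 4 MyS7KO libraries. Whether the genotype difference changed between times was tested as an interaction, and 0 members were called, as were 0 of all genes. At an unadjusted p under 0.05, the interactions held 1 member for day 3 against baseline, 0 for day 7 against baseline and 1 for day 7 against day 3. The shares of all genes that passed were 4.48%, 5.21% and 10.4%.

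**Figure D2:**
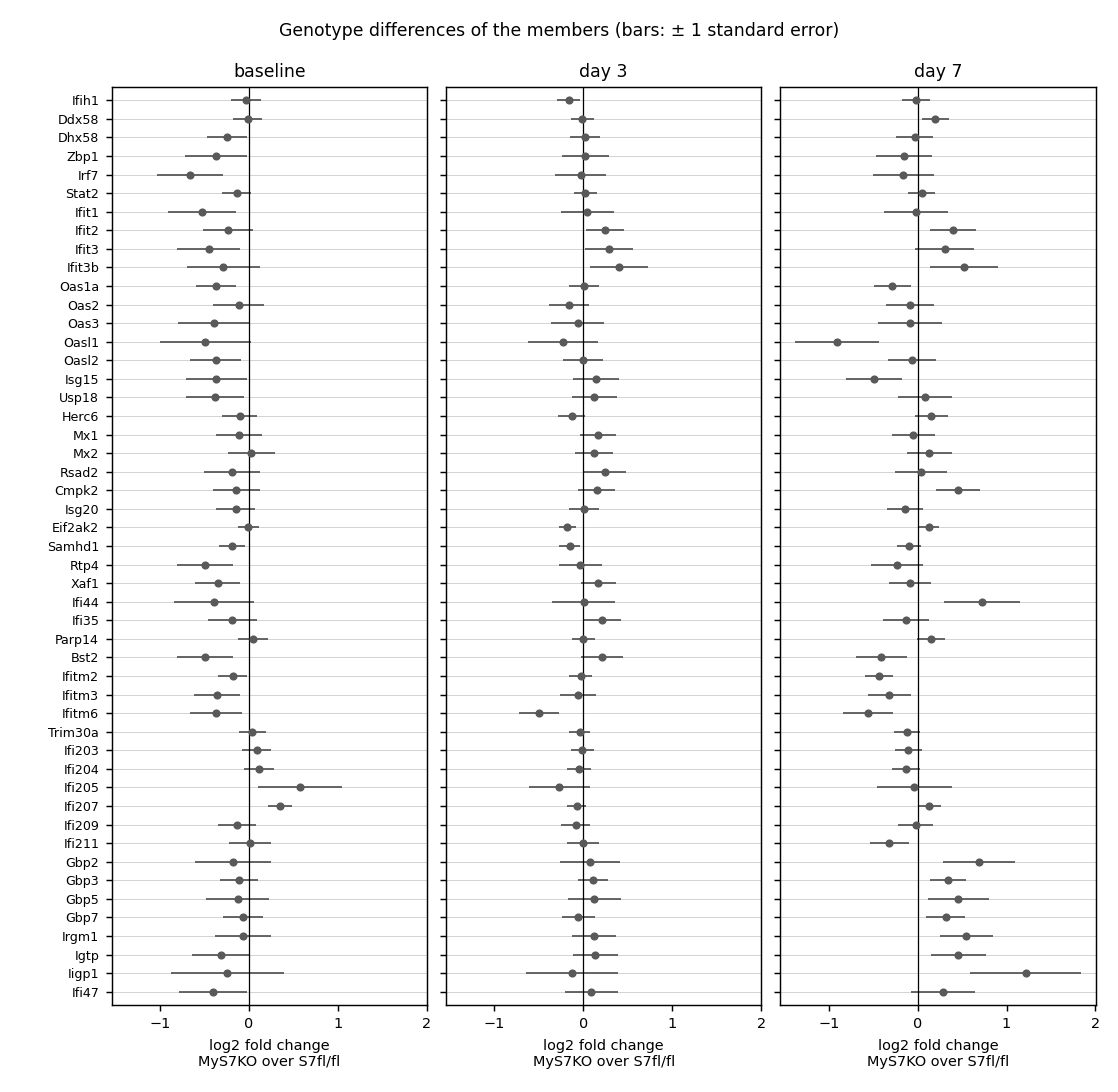
Points are log2 fold changes of MyS7KO over S7fl/fl for 49 members at baseline, day 3 and day 7, and bars are ± 1 standard error of the edgeR fit. None passed the test at any time, the day 3 points lie closest to 0, and the day 7 values run between -0.91 (Oasl1) and 1.22 (Iigp1).

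The promoters of 6 members, 3 called in each direction at day 3, are shown because they carry the sequence on which interferon signalling acts. RefSeq windows of 300 bases, from 250 before to 50 after the start, were matched for 39 of 49 members on GRCm38.p6. The ISRE core (TTTC, any 2 bases, TTTC), on either strand, was present in 25 of the 39 (64.1%), against 3.99% of 27025 genes with a window. The core of the γ-activated site, TTCNNNGAA, was present in 12 of 39 (30.8%), against 9.55% of genes. In the windows below, read 5′ to 3′ along the gene, capitals mark ISRE cores, which on the other strand read GAAA, any 2 bases, GAAA. Isg15, Oas3 and Oas1a were higher at day 3 in both genotypes, and Gbp3, Gbp5 and Gbp7 were lower.
Isg15: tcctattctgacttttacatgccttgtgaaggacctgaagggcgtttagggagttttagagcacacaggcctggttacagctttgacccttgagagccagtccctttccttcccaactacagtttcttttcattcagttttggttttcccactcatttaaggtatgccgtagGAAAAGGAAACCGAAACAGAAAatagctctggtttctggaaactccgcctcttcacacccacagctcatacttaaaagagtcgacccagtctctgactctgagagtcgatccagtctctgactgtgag
Oas3: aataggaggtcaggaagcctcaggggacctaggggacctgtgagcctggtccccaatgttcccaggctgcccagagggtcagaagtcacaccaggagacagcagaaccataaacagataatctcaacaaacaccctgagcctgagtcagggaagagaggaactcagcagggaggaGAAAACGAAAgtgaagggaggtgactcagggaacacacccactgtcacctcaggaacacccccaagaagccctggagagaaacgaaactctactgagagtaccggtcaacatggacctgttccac
Oas1a: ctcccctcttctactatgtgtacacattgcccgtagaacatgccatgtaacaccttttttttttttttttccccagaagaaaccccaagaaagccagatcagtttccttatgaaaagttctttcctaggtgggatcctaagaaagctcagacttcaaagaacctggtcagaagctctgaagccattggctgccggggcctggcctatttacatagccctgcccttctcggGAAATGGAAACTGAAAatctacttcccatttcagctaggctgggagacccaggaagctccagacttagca
Gbp3: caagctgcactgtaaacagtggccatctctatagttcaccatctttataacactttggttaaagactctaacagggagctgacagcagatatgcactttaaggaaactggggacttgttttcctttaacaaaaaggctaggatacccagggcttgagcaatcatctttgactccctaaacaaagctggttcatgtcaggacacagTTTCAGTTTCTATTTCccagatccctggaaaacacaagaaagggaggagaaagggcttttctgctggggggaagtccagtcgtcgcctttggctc
Gbp5: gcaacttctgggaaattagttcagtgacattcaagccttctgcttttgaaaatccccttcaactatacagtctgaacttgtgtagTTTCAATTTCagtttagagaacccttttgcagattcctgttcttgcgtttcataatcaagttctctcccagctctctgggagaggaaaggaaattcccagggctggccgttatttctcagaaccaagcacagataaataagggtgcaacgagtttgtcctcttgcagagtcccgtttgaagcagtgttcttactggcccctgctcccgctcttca
Gbp7: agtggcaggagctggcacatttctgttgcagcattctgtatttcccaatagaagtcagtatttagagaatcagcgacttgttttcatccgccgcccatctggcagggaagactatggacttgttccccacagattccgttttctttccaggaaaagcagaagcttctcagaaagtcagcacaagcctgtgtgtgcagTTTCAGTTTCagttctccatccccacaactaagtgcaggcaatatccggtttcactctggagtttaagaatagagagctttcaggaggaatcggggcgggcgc

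The windows lie at chr4:156200769-156201068 on the minus strand (Isg15), chr5:120777610-120777909 minus (Oas3), chr5:120907476-120907775 minus (Oas1a), chr3:142559794-142560093 plus (Gbp3), chr3:142496684-142496983 plus (Gbp5) and chr3:142530086-142530385 plus (Gbp7). Isg15 held 3 overlapping cores, the first at base -78 from the start. The first core stood at -75 in Oas3, -20 in Oas1a, -45 in Gbp3, -165 in Gbp5 and -53 in Gbp7. Cores were present among members of either direction. Of the members higher at day 3 in both genotypes, 5 of 7 with a window held an ISRE core. Of those lower in both, 7 of 8 did, and of the remaining members 13 of 24. A match is a stretch of letters and was not tested for binding.

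Infarction was compared next, as day 3 against baseline within each genotype. The members did not move together. Oas3, Irf7, Dhx58, Oas1a, Isg15, Zbp1 and 3 p200 genes rose at day 3 in both genotypes, while most GTPases, Oas2, Mx2, Stat2, Parp14 and 2 other p200 genes fell in both. In MyS7KO cells 18 members rose (30.7% of all genes tested did) and 12 fell (35.2% of all genes). In S7fl/fl cells 9 rose (29.9% of all genes) and 14 fell (34.1% of all genes). The members called in either direction made up 61.2% in MyS7KO cells and 46.9% in S7fl/fl cells, against 65.9% and 64% of all genes, so change as such was no more frequent among members than in the background. The median log2 change of members was 0.30 in MyS7KO cells and 0.05 in S7fl/fl cells, against -0.10 and -0.06 over all genes.

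9 members rose in both genotypes and 12 fell in both. Of these, 6 and 10 kept their call in both genotypes in each of the 20 alternative analyses and left-out libraries run per comparison. A further 9 passed the test as higher in MyS7KO cells alone (Bst2, Ifi35, Rsad2, Isg20, Cmpk2, Usp18, Ifit2, Ifit3 and Samhd1), and Igtp and Gbp2 passed as lower in S7fl/fl cells alone. For none of these was the difference between the genotypes' changes called. The remaining 17 members (Ifih1, Ddx58, Ifit1, Ifit3b, Oasl1, Oasl2, Mx1, Eif2ak2, Rtp4, Xaf1, Ifi44, Ifitm2, Ifitm3, Ifitm6, Trim30a, Ifi204 and Ifi47) passed in neither genotype, with log2 changes of -0.20 to 0.52 in MyS7KO and -0.44 to 0.29 in S7fl/fl cells. Without S7fl/fl baseline replicate 2, 13 members rose and 11 fell in S7fl/fl cells, with a median of 0.24.

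The marker content of the sort changed in the same interval. All 6 resident cardiac macrophage markers fell in both genotypes, with sums of 163 to 236 CPM at day 3 against 2661 to 3418 CPM at baseline in MyS7KO libraries, and 182 to 312 against 2323 to 2961 CPM in S7fl/fl libraries. Of 8 classical monocyte markers, 6 rose in MyS7KO cells and 7 in S7fl/fl cells, while the sum over the 8 was 1355 to 1865 CPM at day 3 against 1807 to 2562 CPM at baseline in MyS7KO libraries, and 1497 to 2728 against 1619 to 2020 CPM in S7fl/fl libraries. All 6 NK cell markers fell in both genotypes, as did 6 of 6 cardiomyocyte and 6 of 6 endothelial markers and both T cell markers tested. Of 4 plasmacytoid dendritic cell markers tested, 2 fell in each genotype and 1 rose in MyS7KO cells. The sums over the 6 such markers measured were 131 to 151 CPM at day 3 against 243 to 273 CPM at baseline in MyS7KO libraries, and 129 to 151 against 255 to 286 CPM in S7fl/fl libraries. Immediate-early and dissociation genes fell too, 11 of 12 in both genotypes, with sums of 6036 to 8734 CPM at day 3 against 25009 to 34053 CPM at baseline in MyS7KO libraries. Fewer cells of a type and less RNA per cell cannot be told apart in such bulk samples. The part of cell makeup in the members' changes was not tested.

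**Figure D3:**
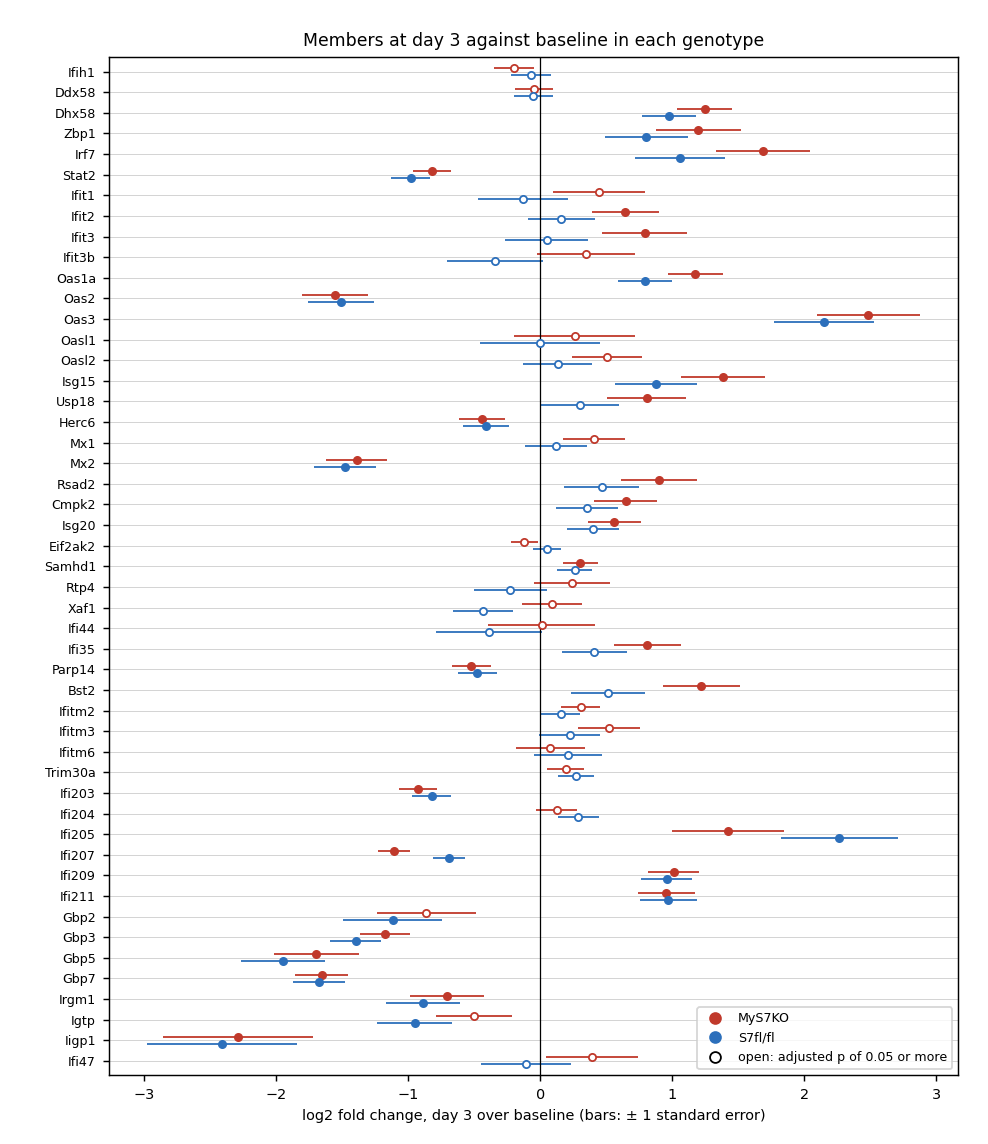
Points are log2 fold changes of day 3 over baseline for 49 members, with ± 1 standard error, in MyS7KO (red, upper) and S7fl/fl cells (blue, lower), and open points did not pass the test. Oas3 lies above 2 in both genotypes, while Iigp1 lies at -2.29 in MyS7KO and -2.41 in S7fl/fl cells.

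Among the sensors, Dhx58 and Zbp1 rose, while Ddx58 and Ifih1, the RNA sensors RIG-I and MDA5, stayed within 0.20 log2 units of baseline in either genotype. Dhx58 encodes LGP2, which tunes both of those sensors. It had 38, 50.2, 49.1, 44.9 and 48.8 CPM in MyS7KO libraries at day 3, against 21.1, 17.8 and 19.6 CPM at baseline, a log2 change of 1.24 ± 0.21 (edgeR adjusted p = 1.94e-05). It had 37.9, 38.7, 43.1, 62.6 and 46.1 CPM in S7fl/fl libraries at day 3, against 19.2, 31.5 and 19.1 CPM at baseline (0.98 ± 0.20, adjusted p = 0.000254). Day 3 and baseline did not overlap in either genotype, and the highest baseline library was S7fl/fl replicate 2. Zbp1, which senses Z-form nucleic acid and triggers cell death, changed by 1.20 ± 0.32 in MyS7KO cells and 0.80 ± 0.31 in S7fl/fl cells. The S7fl/fl call of Zbp1 ended in 7 of 20 alternatives. It ended without S7fl/fl baseline replicate 1 or 3 and without day 3 replicate 4 or 5, with adjusted p up to 0.15.

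The transcription factors moved in opposite directions. Irf7 had 108, 162, 160.1, 138 and 158 CPM in MyS7KO libraries at day 3, against 49.9, 43 and 42.4 CPM at baseline, a 3.22-fold rise (log2 1.69 ± 0.35, edgeR adjusted p = 0.000384). Irf7 in S7fl/fl libraries had 120.2, 119, 116, 232 and 154 CPM at day 3, against 55.4, 111 and 47.8 CPM at baseline (1.06 ± 0.34, adjusted p = 0.0114). S7fl/fl baseline replicate 2 reached nearly the lowest day 3 library, and without S7fl/fl baseline replicate 3 the adjusted p was 0.0691. Stat2, the partner of IRF9 in the ISRE-binding complex, fell. It had 54.8, 56.6, 70.2, 64.2 and 61.4 CPM in MyS7KO libraries at day 3, against 117, 108 and 99.96 CPM at baseline (-0.82 ± 0.15, adjusted p = 3.8e-05). Stat2 in S7fl/fl libraries had 58.3, 50.9, 55.9, 74.5 and 62.6 CPM at day 3, against 119.5, 139.9 and 99.1 CPM at baseline (-0.98 ± 0.15, adjusted p = 3.9e-06). No Stat2 library of day 3 reached a baseline library in either genotype.

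The OAS genes split as well. Oas3, with the ISRE core shown above at -75, gave the largest log2 rise of any member in MyS7KO cells. It had 40.4, 61.9, 68.1, 67.1 and 67.6 CPM in MyS7KO libraries at day 3, against 13.5, 11.2 and 8.03 CPM at baseline, 5.59-fold higher (log2 2.48 ± 0.39, edgeR adjusted p = 2.02e-05). Oas3 in S7fl/fl libraries had 53.8, 47.5, 53.7, 90.4 and 73 CPM at day 3, against 14.7, 21.2 and 7.4 CPM at baseline, 4.43-fold higher (2.15 ± 0.38, adjusted p = 7.73e-05). Every day 3 library was well above every baseline library. Its neighbour Oas2 fell over the same days. Oas2 had 40.05, 47.1, 65.4, 64 and 55.6 CPM in MyS7KO libraries at day 3, against 142, 165 and 173 CPM at baseline, 2.94-fold lower (-1.55 ± 0.25, adjusted p = 2.19e-05). Oas2 in S7fl/fl libraries had 60.8, 50.3, 47.3, 80.2 and 66.1 CPM at day 3, against 164, 213 and 144 CPM at baseline (-1.51 ± 0.25, adjusted p = 3.19e-05). Here every day 3 library was below every baseline library.

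Oas1a, the third gene of that chromosome 5 cluster among the members, changed by 1.17 ± 0.21 in MyS7KO cells and 0.80 ± 0.20 in S7fl/fl cells (edgeR adjusted p = 4.93e-05 and 0.00193), with 40.9% of its transcript words shared with Oas1g. Oasl1 and Oasl2, which are OAS-like, did not pass the test (0.26 ± 0.46 and 0.51 ± 0.26 in MyS7KO cells, -0.00 ± 0.45 and 0.13 ± 0.26 in S7fl/fl cells). The 5 OAS genes therefore gave 2 higher, 1 lower and 2 not called in either genotype.

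In the ISG15 system, Isg15 had 55.9, 79.9, 84.5, 68.6 and 74.3 CPM in MyS7KO libraries at day 3, against 35, 26.5 and 22.1 CPM at baseline (1.38 ± 0.32, edgeR adjusted p = 0.000896). Isg15 in S7fl/fl libraries had 55.7, 52.5, 52.2, 86.4 and 83 CPM at day 3, against 33.7, 53 and 21.3 CPM at baseline (0.88 ± 0.31, adjusted p = 0.0194). The MyS7KO groups did not overlap, whereas S7fl/fl baseline replicate 2 lay within the day 3 range. The S7fl/fl call ended in 4 of 20 alternatives, among them the fits without S7fl/fl baseline replicate 1 (adjusted p = 0.0502) or replicate 3 (0.118). Herc6 fell slightly in both genotypes (-0.44 ± 0.17 in MyS7KO and -0.41 ± 0.17 in S7fl/fl cells), a call that ended in 7 and 13 of 20 alternatives, with adjusted p up to 0.154 without MyS7KO baseline replicate 2 and up to 0.127 without S7fl/fl baseline replicate 2. Usp18, which removes ISG15 and damps receptor signalling, was called higher in MyS7KO cells (0.81 ± 0.30, adjusted p = 0.0235), with 0.30 ± 0.29 in S7fl/fl cells. The Usp18 call ended in 3 of 20 alternatives, with an adjusted p of 0.0795 without MyS7KO baseline replicate 2.

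The antiviral effectors held the clearest fall in Mx2, a gene of the dynamin-like GTPase family that is annotated as a polymorphic pseudogene. Whether its transcript yields a working protein was not tested. Mx2 had 7.55, 7.9, 11.4, 9.97 and 10.2 CPM in MyS7KO libraries at day 3, against 25, 22.5 and 26.3 CPM at baseline (-1.39 ± 0.23, edgeR adjusted p = 1.99e-05). Mx2 in S7fl/fl libraries had 8.7, 6.93, 7.65, 10.5 and 9.37 CPM at day 3, against 23.9, 30.2 and 18.4 CPM at baseline (-1.48 ± 0.23, adjusted p = 9.88e-06). The groups did not overlap, while its neighbour Mx1 did not pass the test in either genotype (0.40 ± 0.23 in MyS7KO and 0.12 ± 0.23 in S7fl/fl cells). Parp14, an ADP-ribosyltransferase, also fell in both (-0.52 ± 0.15 in MyS7KO and -0.48 ± 0.15 in S7fl/fl cells).

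Rsad2, which encodes viperin, Cmpk2, its neighbour on chromosome 12, Isg20, Ifi35 and Samhd1 rose in MyS7KO cells, with log2 changes between 0.30 and 0.90. The same 5 genes had 0.26 to 0.47 in S7fl/fl cells and did not pass there. Among them Ifi35 kept its MyS7KO call in every alternative (0.81 ± 0.25, edgeR adjusted p = 0.0079). Rsad2 and Isg20 lost theirs without MyS7KO baseline replicate 3, with adjusted p of 0.0700 and 0.0948. The calls of Cmpk2 and Samhd1 ended in 5 and 13 of 20 alternatives, with adjusted p up to 0.0916 without MyS7KO baseline replicate 3 for Cmpk2 and up to 0.136 without MyS7KO baseline replicate 2 for Samhd1. The 4 IFIT genes had log2 changes of 0.35 to 0.79 in MyS7KO cells, of which Ifit2 and Ifit3 passed. Those 2 calls ended in 9 and 11 of 20 alternatives, with adjusted p up to 0.0945 for Ifit2 with the replicate block and up to 0.134 for Ifit3 without MyS7KO baseline replicate 2, and no IFIT gene passed in S7fl/fl cells (-0.34 to 0.16).

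Bst2, which encodes the virion tether tetherin, was the single restriction factor called. It had 164, 235, 301, 209.8 and 249 CPM in MyS7KO libraries at day 3, against 101, 89.6 and 108 CPM at baseline (1.22 ± 0.29, edgeR adjusted p = 0.00112). Bst2 in S7fl/fl libraries had 171, 141, 192, 226 and 272 CPM at day 3, against 98, 214 and 109 CPM at baseline (0.51 ± 0.28, adjusted p = 0.117). The S7fl/fl groups overlapped through baseline replicate 2, the library that stood high for the members. Ifitm3, Ifitm2, Ifitm6 and Trim30a had changes of 0.08 to 0.52 and did not pass in either genotype.

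The p200 genes of the chromosome 1 cluster divided into 3 that rose, 2 that fell and 1 not called, in the same way in both genotypes. Ifi205 had 23.5, 29.95, 20.1, 28.3 and 30.8 CPM in MyS7KO libraries at day 3, against 7.79, 13.6 and 8.28 CPM at baseline (1.42 ± 0.43, edgeR adjusted p = 0.00664). Ifi205 in S7fl/fl libraries had 18.1, 38.1, 20.7, 58.4 and 24.7 CPM at day 3, against 6.73, 5.37 and 7.78 CPM at baseline (2.26 ± 0.44, adjusted p = 0.00021). Day 3 and baseline were fully apart, with S7fl/fl day 3 replicates 2 and 4 the highest. Ifi209 and Ifi211 rose by 1.01 ± 0.19 and 0.96 ± 0.22 in MyS7KO cells and by 0.96 ± 0.19 and 0.97 ± 0.22 in S7fl/fl cells.

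Ifi207, the most abundant p200 member, fell. It had 319.99, 318, 289.7, 337 and 326 CPM in MyS7KO libraries at day 3, against 741, 538 and 781 CPM at baseline (-1.11 ± 0.12, edgeR adjusted p = 4.47e-08). Ifi207 in S7fl/fl libraries had 308, 384, 325, 366 and 292 CPM at day 3, against 649.8, 495 and 475 CPM at baseline (-0.69 ± 0.12, adjusted p = 3.5e-05). All day 3 libraries were below all baseline libraries. Ifi203 fell by 0.92 ± 0.14 in MyS7KO and by 0.82 ± 0.14 in S7fl/fl cells on the log2 scale, and Ifi204 did not pass (0.12 ± 0.15 and 0.29 ± 0.15).

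The interferon-inducible GTPases mostly fell, 5 of 8 in MyS7KO cells and 7 of 8 in S7fl/fl cells. None rose, and the group medians were -1.02 and -1.26. Gbp7 had 19.8, 14.4, 18.6, 16.8 and 19.4 CPM in MyS7KO libraries at day 3, against 62.2, 48.8 and 57.4 CPM at baseline, 3.15-fold lower (log2 -1.66 ± 0.20, edgeR adjusted p = 3.15e-07). Gbp7 in S7fl/fl libraries had 18.3, 18.7, 20.2, 19.2 and 16.1 CPM at day 3, against 59.3, 59.6 and 58.4 CPM at baseline, 3.20-fold lower (-1.68 ± 0.20, adjusted p = 3e-07). The spread within each group was small beside that gap.

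Gbp5, which promotes inflammasome assembly, had 8.4, 9.76, 13.2, 10.4 and 12.4 CPM in MyS7KO libraries at day 3, against 40.6, 31.7 and 32.8 CPM at baseline (-1.70 ± 0.32, edgeR adjusted p = 0.000121). Gbp5 in S7fl/fl libraries had 8.4, 11.1, 9.94, 9.52 and 10.7 CPM at day 3, against 34.9, 47.7 and 32.4 CPM at baseline (-1.95 ± 0.32, adjusted p = 2.94e-05). Gbp3, of the same cluster, changed by -1.18 ± 0.19 in MyS7KO and -1.40 ± 0.19 in S7fl/fl cells, again with no overlap between day 3 and baseline libraries. Iigp1 fell the most, with 15.7, 11.4, 19.1, 8.1 and 11.1 CPM in MyS7KO libraries at day 3, against 85.3, 51.2 and 55.5 CPM at baseline (-2.29 ± 0.57, adjusted p = 0.00175). Iigp1 in S7fl/fl libraries had 18.4, 11.6, 9.67, 9.33 and 22.1 CPM at day 3, against 68.8, 101 and 57.9 CPM at baseline (-2.41 ± 0.57, adjusted p = 0.00117). Irgm1, a regulator of autophagy, changed by -0.70 ± 0.28 in MyS7KO and -0.89 ± 0.28 in S7fl/fl cells, and its MyS7KO call ended in 7 of 20 alternatives, with an adjusted p up to 0.133 without MyS7KO baseline replicate 1. The S7fl/fl calls of Igtp and Gbp2 ended without S7fl/fl baseline replicate 2, with adjusted p of 0.0639 and 0.0822, and Ifi47 passed in neither genotype.

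**Figure D4:**
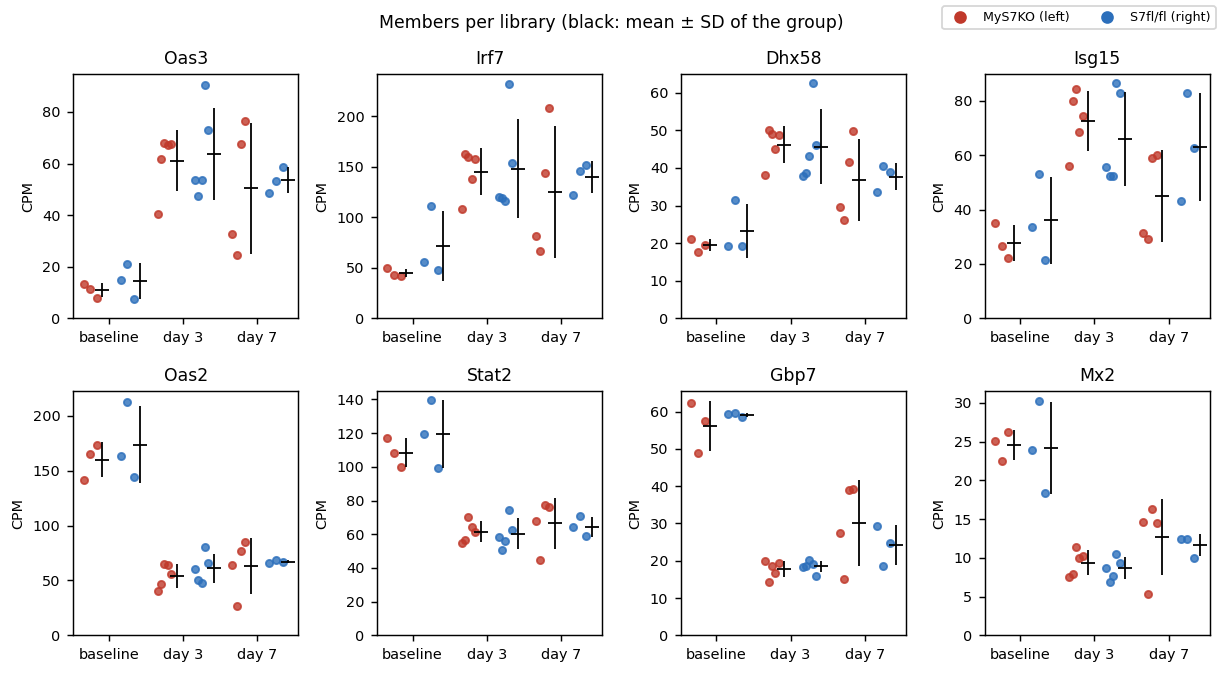
Each point is the CPM of a library at baseline, day 3 and day 7, with MyS7KO (red) left of S7fl/fl (blue), and black marks are the group mean ± SD (n = 3 to 5). Group means of Oas3, Irf7, Dhx58 and Isg15 in the upper row lie higher at day 3 than at baseline, and those of Oas2, Stat2, Gbp7 and Mx2 in the lower row lie lower. For Isg15, S7fl/fl baseline replicate 2 lies within the day 3 range. The MyS7KO day 7 points are widely spread.

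By day 7 part of these changes remained. In MyS7KO cells 9 members were higher than at baseline (22.2% of all genes) and 7 lower (21.8%, with 44% in either direction), and in S7fl/fl cells 7 were higher (24.8%) and 11 lower (25.4%). Higher in both were Dhx58, Irf7, Oas3, Isg20 and Ifi209, and lower in both were Stat2, Oas2, Mx2, Ifitm6, Ifi203, Ifi207 and Gbp7. Of these, Oas3, Oas2 and Stat2 kept their calls in both genotypes in every alternative. With sex added to the fit, the MyS7KO calls of Isg20, Cmpk2 and Zbp1 ended (edgeR adjusted p = 0.101, 0.0655 and 0.183). Sex was not the only such setting, since these calls ended in 6, 11 and 12 of 19 alternatives. The S7fl/fl call of Ifi207 ended in 9 of 18, with an adjusted p of 0.388 without S7fl/fl baseline replicate 1. The counts leaned on single libraries. Without MyS7KO day 7 replicate 3 the MyS7KO counts were 19 higher and 7 lower, with a median log2 change of 0.35 in place of 0.18. Those 26 members stood beside 38.6% of all genes called in that fit, where all libraries gave 16 members beside 44%. Without S7fl/fl baseline replicate 2, the S7fl/fl calls of Ifi205, Ifi209, Iigp1, Gbp3, Gbp5 and Igtp ended, with adjusted p of 0.0581 to 0.132. The Ifi209 call there ended in 8 of 18 alternatives. Without S7fl/fl day 7 replicate 3 or 4 the S7fl/fl counts were 8 and 9 in all (41.2% and 42.2% of all genes), in place of 18 (50.2%).

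Oas3 stayed the highest riser, with 32.9, 24.7, 67.7 and 76.5 CPM in MyS7KO libraries at day 7, against the baseline values above (log2 2.21 ± 0.40, edgeR adjusted p = 0.000201). Oas3 in S7fl/fl libraries had 48.7, 53.4 and 58.6 CPM at day 7 (1.90 ± 0.40, adjusted p = 0.00074). All day 7 libraries were above all baseline libraries of their genotype, and this call held in every alternative run. Irf7 had 81.3, 66.5, 144 and 209 CPM in MyS7KO libraries at day 7 (1.47 ± 0.36, adjusted p = 0.00286) and 122, 146 and 152 CPM in S7fl/fl libraries (0.97 ± 0.37, adjusted p = 0.0358). The S7fl/fl call of Irf7 ended without S7fl/fl baseline replicate 1 or 3 and without day 7 replicate 3 or 4, with adjusted p up to 0.145.

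Oas2 and Stat2 remained low at day 7 in both genotypes and in every alternative run. Oas2 had 64.4, 26.8, 76.4 and 85.3 CPM in MyS7KO libraries (-1.34 ± 0.27, edgeR adjusted p = 0.000486) and 66.1, 69 and 66.5 CPM in S7fl/fl libraries (-1.37 ± 0.29, adjusted p = 0.000684). Stat2 had 67.8, 44.6, 77.3 and 76.3 CPM in MyS7KO libraries (-0.70 ± 0.15, adjusted p = 0.0008) and 64.3, 70.6 and 58.7 CPM in S7fl/fl libraries (-0.89 ± 0.17, adjusted p = 0.000137). For both genes every day 7 library lay below every baseline library of its genotype. Ifit2 had 47.1, 29.2, 90.2 and 97.6 CPM in MyS7KO libraries at day 7, against 29, 26.5 and 25.7 CPM at baseline (1.29 ± 0.27, adjusted p = 0.000745). Ifit2 in S7fl/fl libraries had 51, 49.97 and 49.6 CPM, against 34.3, 35.5 and 26.3 CPM (0.65 ± 0.28, adjusted p = 0.0612). Day 7 exceeded baseline in every Ifit2 library of both genotypes.

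Between day 3 and day 7, 5 of 8 GTPases rose in MyS7KO cells. There 8 members were higher (20.5% of all genes) and 7 lower (19.1%, with 39.6% in either direction). Gbp2, Gbp3, Gbp5, Gbp7 and Iigp1 were among the higher ones. Gbp3 had 43.5, 30.7, 68.1 and 70.6 CPM at day 7, against 27.2, 26.5, 26.8, 25 and 27.4 CPM at day 3 (1.00 ± 0.18, edgeR adjusted p = 0.000126). Gbp5 had 17.2, 7.79, 41.4 and 34.4 CPM at day 7, against the 8.4 to 13.2 CPM of day 3 (1.22 ± 0.30, adjusted p = 0.00313). Iigp1 had 33.3, 3.19, 94.4 and 44.8 CPM at day 7, against 8.1 to 19.1 CPM at day 3 (1.75 ± 0.54, adjusted p = 0.0146), and without MyS7KO day 7 replicate 4 its adjusted p was 0.117. For Gbp3 all day 7 libraries exceeded all day 3 libraries, whereas for Gbp5 and Iigp1 replicate 3 lay below the day 3 range.

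The lower members at day 7 in MyS7KO cells were Ifitm6, Ifitm3, Ifitm2, Bst2, Oas1a, Ifi35 and Ifi211. Ifitm3 had 164, 139, 309 and 301 CPM in MyS7KO libraries at day 7, against 387, 451, 455, 377 and 428 CPM at day 3 (-0.88 ± 0.21, edgeR adjusted p = 0.00259). Ifitm6 had 6.62, 4.54, 6.7 and 6.34 CPM at day 7, against 14.7, 15, 11.1, 13.7 and 12.6 CPM at day 3 (-1.15 ± 0.25, adjusted p = 0.000911). Neither gene's groups overlapped. Gbp3, Gbp5, Gbp7, Ifi207, Ifitm6, Ifitm3 and Oas1a kept their calls in every alternative run, and the calls of Ifi35 and Ifi211 ended without MyS7KO day 7 replicate 1 or 3, with adjusted p up to 0.109. Without MyS7KO day 7 replicate 1 the adjusted p was 0.0645 for Ifitm2 and 0.141 for Bst2. The call of Bst2 ended in 11 of 21 alternatives, among them the one without MyS7KO day 7 replicate 3 (adjusted p = 0.128). Among the higher members, the calls of Ifit2, Gbp2 and Iigp1 ended in 11, 9 and 6 of 21 alternatives, with adjusted p up to 0.211, 0.276 and 0.217, each with limma-trend on log2(FPKM + 1) without a filter. The call of Ifih1 ended under that setting alone (adjusted p = 0.0583). Without MyS7KO day 7 replicate 3 the counts were 19 higher and 4 lower, beside 38.9% of all genes called in either direction.

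In S7fl/fl cells 2 members passed between day 7 and day 3, against 11.5% of all genes higher and 10.1% lower. Gbp3 had 48.2, 37.3 and 40.5 CPM at day 7, against 27.7, 23.1, 19.6, 25.1 and 27.7 CPM at day 3 (0.77 ± 0.19, edgeR adjusted p = 0.00609, and 0.0509 without S7fl/fl day 7 replicate 2). Ifitm6 had 8.2, 6.65 and 11.8 CPM at day 7, against 14.8, 29.6, 11, 27.7 and 12.4 CPM at day 3 (-1.10 ± 0.27, adjusted p = 0.0054). Gbp3 showed no overlap and Ifitm6 overlapped in 1 library. The Ifitm6 call ended when only the compared groups were fitted (adjusted p = 0.0782). None of the differences between genotypes in these day 7 changes was called. In the same interval 7 of 7 fibroblast markers rose in MyS7KO and 5 of 7 in S7fl/fl cells, 6 of 8 monocyte markers fell in both, and 11 of 12 immediate-early genes rose in MyS7KO and 9 of 12 in S7fl/fl cells. Their part in the members' changes was not tested.

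In some libraries most members were high or low together. In MyS7KO day 7 replicate 3 the lowest value of the group fell on 8 of 8 GTPases, 12 of 12 antiviral effectors, 4 of 4 IFIT genes and 4 of 4 sensors, and 1 of 49 members lay above its mean over the 23 libraries. MyS7KO day 7 replicate 5 held the highest value for 32 members (25.1% of all genes) and replicate 4 for 15 (25.3%). Replicate 3 was also the lowest of its group in summed endothelial markers (198 CPM, group range 198 to 1270), fibroblast markers (1771 CPM, range 1771 to 5080) and immediate-early genes (9849 CPM, range 9849 to 16376), while its macrophage markers, at 10928 CPM, lay within the group range of 8290 to 11242. The part of these in the library's low members was not tested.

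S7fl/fl baseline replicate 2 was highest for 8 of 8 GTPases, 5 of 5 OAS genes and 4 of 4 IFIT genes, but for 0 of 6 p200 genes. S7fl/fl day 3 replicate 4 was highest for 31 members (19.6% of all genes), among them 5 of 5 OAS genes, 4 of 4 sensors and 5 of 6 p200 genes, with 0 of 4 IFIT genes. Its classical monocyte markers summed to 2728 CPM, and those of replicate 2, highest for 3 members and lowest for 18, to 2711 CPM. S7fl/fl day 3 replicate 4 also had the lowest fibroblast and endothelial marker sums of all 5, at 247 and 330 CPM. It was the S7fl/fl library at day 3 above the cut for signals of both sexes. The part of these in its member values was not tested. MyS7KO day 3 replicate 1 was lowest for 31 members (23.9% of all genes).

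**Figure D5:**
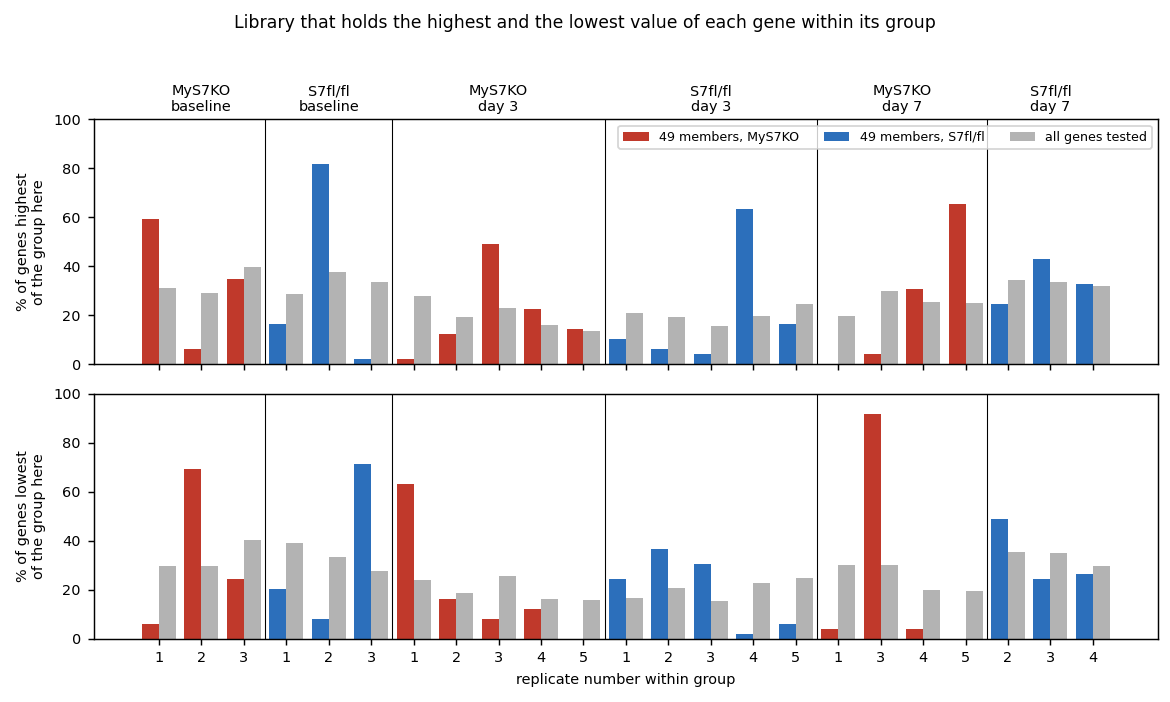
Bars are the percent of genes whose highest (upper panel) or lowest (lower panel) value within a group falls in each library, for 49 members (red for MyS7KO, blue for S7fl/fl) and for all genes tested (grey). The members concentrate their lowest values in MyS7KO day 7 replicate 3 (45 of 49) and their highest in S7fl/fl baseline replicate 2 (40 of 49).

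The rest of the pathway was read from lists of ligands, receptors, signalling proteins, brakes and further targets, again as day 3 against baseline. Of 21 interferon ligand genes, Ifnb1 and Ifng alone were expressed enough to be tested. Ifng, a product of lymphoid cells, had 0.398, 1.29, 0.238, 0.125 and 0.18 CPM in MyS7KO libraries at day 3, against 2.01, 1.74 and 2.03 CPM at baseline (-2.02 ± 0.53, edgeR adjusted p = 0.00189). In these day 3 libraries 3 counts correspond to 0.133 to 0.187 CPM, so replicates 4 and 5 held about 3 counts or fewer of Ifng. Ifng changed by -2.09 ± 0.52 in S7fl/fl cells. The 6 NK cell markers fell with it, with sums of 6.36 to 14.2 CPM at day 3 against 35.4 to 59.1 CPM at baseline in MyS7KO libraries. Ifnb1, the first type I interferon made by sensing cells, changed by -1.60 ± 0.69 in MyS7KO and -2.44 ± 0.69 in S7fl/fl cells (adjusted p = 0.045 and 0.00393). The MyS7KO call of Ifnb1 ended in 12 of 20 alternatives, with an adjusted p of 0.407 without MyS7KO baseline replicate 1.

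The receptors went the other way, with 4 of 6 higher in both genotypes. Ifnar2, which binds type I interferon tightly, had 148, 162, 125, 147 and 145 CPM in MyS7KO libraries at day 3, against 86.9, 76.3 and 86.3 CPM at baseline (0.80 ± 0.10, edgeR adjusted p = 2.41e-07). Ifnar2 in S7fl/fl libraries had 136, 158, 149, 151 and 141 CPM at day 3, against 79.1, 76.9 and 80.7 CPM at baseline (0.90 ± 0.10, adjusted p = 5.51e-08). Ifnar1 changed by 0.52 ± 0.10 in MyS7KO and 0.82 ± 0.10 in S7fl/fl cells, and Ifngr2 and Il10rb rose too. All of these groups were apart.

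Of 11 receptor kinases, STATs and IRFs, 2 rose and 3 fell in both genotypes. Irf1, which acts early on γ-activated sites, fell by 2.08 ± 0.21 in MyS7KO and 2.09 ± 0.21 in S7fl/fl cells on the log2 scale, Irf9 fell by 0.60 ± 0.14 and 0.71 ± 0.14, and Jak2 rose by 1.02 ± 0.24 and 1.21 ± 0.24 (MyS7KO and S7fl/fl). Of 13 genes that sense nucleic acid upstream of interferon, 4 rose and 4 fell in MyS7KO cells and 5 rose and 3 fell in S7fl/fl cells. The kinase gene Ikbke had the largest change there, at 2.86 ± 0.23 and 3.14 ± 0.24. Of 6 tested brakes, 2 rose and 2 fell in both, with Socs3, which blocks JAK kinases, at -0.96 ± 0.17 and -0.91 ± 0.17.

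Targets favoured by interferon-γ, a list that includes relatives of the member GTPases, were counted too. Of 19 tested, 2 rose and 10 fell at day 3 in MyS7KO cells, and 1 rose and 11 fell in S7fl/fl cells, with medians of -1.18 and -1.60. Ciita, the master regulator of class II antigen presentation, changed by -2.28 ± 0.19 in MyS7KO and -2.18 ± 0.19 in S7fl/fl cells (edgeR adjusted p = 9.8e-10 and 2.33e-09). Gbp9 and Batf2 fell as well. At day 7 against day 3, 10 of the 19 rose and 1 fell in MyS7KO cells (20.5% and 19.1% of all genes). In S7fl/fl cells 3 rose over that interval (11.5% of all genes). Among 31 other interferon-induced genes, 9 rose and 10 fell in MyS7KO cells at day 3, and 8 rose and 10 fell in S7fl/fl cells. Slfn4, a schlafen gene of monocytes, rose by 4.25 ± 0.50 and 4.5 ± 0.50 (MyS7KO and S7fl/fl), whereas Ddx60, a helicase that assists RIG-I, fell by 1.61 ± 0.17 and 1.53 ± 0.17. Of all genes tested, 30.7% rose and 35.2% fell at day 3 in MyS7KO cells, and 29.9% rose and 34.1% fell in S7fl/fl cells.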

How the data were processed

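The labels list 23 libraries of paired-end reads, whereas their protocol text counts 8 cDNA libraries, so which of the 23 it covers, and whether all come from separate animals, is not given in the sources used here. The authors deposited gene counts and FPKM values in separate tables, and HTSeq 0.6.1, Cufflinks 2.1.1 and TopHat2 2.0.9 are listed in the submitters' processing notes, with no role given. FPKM values as deposited are counts divided by gene length and a constant for each library, as checked on the members. Strandedness is not given in the sources used here. Counts were scaled by TMM and fitted with edgeR 4.0.16 (quasi-likelihood, robust, R 4.3.3), with 1 coefficient for each of 6 groups, over the 16545 genes left by filterByExpr. Benjamini-Hochberg adjusted p under 0.05 was called. CPM used TMM-scaled library sizes, and standard errors are the log2 change divided by the root of F. The script was tested on simulated data. Alternatives were RLE scaling, no filter on low counts and DESeq2 1.42.0. With limma 3.58.1, voom with sample weights and trend on log2(FPKM + 1) or + 0.1 were run. Others were the compared groups alone, the replicate block, sex, the libraries with signals of both sexes left out, and each library left out. The members and lists were chosen with earlier results of these data known. Values per library were given for some called members, taken from the up to 12 of lowest p per direction and comparison. Where fewer than 5 members were called, values were given for some of those with the lowest p. For pathway genes the same order was used. Promoter windows came from RefSeq on GRCm38.p6. A gene of the pathway lists is not reported here.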

Additional observations from a re-analysis of the deposited data

Results flagged for a closer look

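Among 147 combinations of a member with a group of 4 or 5 libraries, 8 held a library far from the others of its group by Dixon's test, which chance gives in about 1 in 20. MyS7KO day 3 replicate 1 was low for Zbp1 at 39.9 CPM (nearest library 56 CPM), for Oas3 at 40.4 CPM (nearest 61.9 CPM) and for Ifi211 at 75.1 CPM (nearest 86.7 CPM). MyS7KO day 7 replicate 3 was low for Mx2 at 5.37 CPM (nearest 14.4 CPM), for Ifitm6 at 4.54 CPM (nearest 6.34 CPM) and for Ifi203 at 111 CPM (nearest 149.7 CPM). S7fl/fl day 3 replicate 5 was high for Ifit1 at 26.3 CPM (nearest 23.4 CPM), and S7fl/fl day 3 replicate 4 was high for Trim30a at 165 CPM (nearest 133 CPM).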

How the results depend on the processing

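No member was called between genotypes, or for a change of the genotype difference between times, under any alternative or with any library left out. Day 3 against baseline gave 24 to 38 called members in MyS7KO cells under the other settings, against 30, and 20 to 28 in S7fl/fl cells, against 23. With 1 library left out the counts were 22 to 29 in MyS7KO and 19 to 24 in S7fl/fl cells. Day 7 against baseline in MyS7KO cells gave 26 members with limma-voom, 9 with only the compared groups fitted and 27 without both MyS7KO day 7 replicate 3 and S7fl/fl baseline replicate 2, against 16, and 12 to 26 with 1 library left out. Day 7 against day 3 in MyS7KO cells gave 15 members in the main fit (39.6% of all genes). It gave 9 with limma-trend on log2(FPKM + 1) without a filter (16.8% of all genes). Without both it gave 24 (38.4%), and 13 to 23 with 1 library left out. In S7fl/fl cells, day 7 against baseline gave 8 to 18 with 1 library left out. Day 7 against day 3 there gave 2 in the main fit (21.7% of all genes), 5 with DESeq2 (25.2%) and 4 with limma-voom (25.6%). It gave 6 with the compared groups alone (21.3%), 4 with the replicate block (20.3%) and 7 without both (22.2%). With 1 library left out it gave 1 to 3. The cause of these shifts was not tested. Leaving out both was chosen after the data were seen. Deviations of the 10 pairs of libraries with the same number correlated at -0.352 to 0.272. In 4 of the 10 pairs the best match was the same number. With so few libraries per group, these values cannot decide whether the replicate numbers pair the samples. Among single genes, members and pathway genes together, the direction reversed in 0 results, 290 calls ended and 13 were gained, with 4623 on the same side. Counts of 3 to 5 libraries per group limit what can be called.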
